A study of Mus musculus with 39 samples.

Results

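The clustered protocadherin genes were examined for 4 histone marks in 3 cell populations. They were taken as every protein-coding gene of the GRCm38 annotation whose symbol starts with Pcdha, Pcdhb or Pcdhg, which gave 57 of 21938 genes, all on the plus strand of chromosome 18. The choice used gene symbols alone and no measured value. Pcdhgb8 was left out because GENCODE does not class it as protein-coding.

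Clustered protocadherins are adhesion proteins of the cadherin superfamily. They are best known in neurons, where each cell displays its own combination of isoforms and homophilic binding lets its processes recognise one another. In the alpha and gamma clusters every variable exon has its own promoter and encodes the extracellular and transmembrane parts of a protein, and it is spliced to constant exons shared by the whole cluster. Beta genes consist of a single exon each and have no constant exons. The C-type genes at the distal ends of the alpha and gamma clusters are named for their separate sequence class. In neurons, CTCF and cohesin take part in choosing which promoter is used, and H3K9 methylation by SETDB1 is known to act on these clusters. H3K9me3 and Polycomb-deposited H3K27me3 mark repressed chromatin, H3K27ac marks active promoters and enhancers, and H3K4me1 marks enhancers in general.

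The cells were mouse nEnd, naive extra-embryonic endoderm derived from embryonic stem cells and grown in a medium with Activin A, CHIR99021 and LIF on fibroblast-coated plates. All came from 1 reporter line in which OCT4 is fused to mCherry, received no treatment, and were separated by FACS into OCT4-mCherry single positive cells (Oct4+), cells positive for both OCT4-mCherry and PDGFRA (DP) and PDGFRA single positive cells (Pdgfra+). CUT&Tag, in which an antibody brings a transposase to the DNA around a histone mark, was done for H3K9me3, H3K27me3, H3K4me1 and H3K27ac with 3 libraries per mark and population, and the question was how these marks lie over the clusters in the 3 populations. The study calls its replicates biological, and the sources used here do not say whether each came from its own culture or sort, so p-values measure the spread between these libraries.

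Each library was deposited as a list of peaks called against IgG, and depth is unknown. The lists held 5322 to 29970 peaks for H3K9me3, 1143 to 8672 for H3K27me3, 1074 to 16057 for H3K4me1 and 3079 to 65131 for H3K27ac, and the lack of a listed peak does not mean the lack of the mark. The lowest total signal of a listed H3K9me3 peak was 3752 to 4609 in Oct4+ lists, 6021 to 6596 in DP lists and 7633 to 8993 in Pdgfra+ lists. Since depth is unknown and the signal was not scaled as far as the values show, these minima cannot be compared as strengths of the mark. Among marker genes, H3K27ac lay at the first exon of 6, 1 and 1 of 7 pluripotency genes and of 3, 10 and 9 of 10 endoderm genes in Oct4+, DP and Pdgfra+ nEnd, where a gene counted if 2 or 3 libraries of the population listed a peak. Nanog and Sox2 had H3K27ac peaks in 3 Oct4+ libraries and in 0 of the others, and Gata4, Gata6, Sox17 and Sox7 had H3K27me3 peaks in 3 Oct4+ libraries and in 0 of the others. H3K27ac lay at 0 of 5 neural genes in every population. In sorted populations, a mark in fewer cells cannot be told apart from less of the mark per cell.

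The alpha cluster spans chr18:36930184-37187661 (257 kb) and holds 12 alternate genes, Pcdha1 to Pcdha12, followed by Pcdhac1, Pcdhac2 and 3 constant exons. The beta cluster spans chr18:37264938-37524479 (259.5 kb) with 22 single-exon genes, Pcdhb1 to Pcdhb22. The gamma cluster spans chr18:37661793-37841873 (180.1 kb) with 12 gamma A genes, 6 gamma B genes, Pcdhgc3, Pcdhgc4, Pcdhgc5 and 3 constant exons. A gene was counted as having a peak where a listed peak overlapped its own first exon plus 2 kb either side. First exons of the members had a median length of 2611 bp against 209 bp over all genes, so their windows were wider, and the 447 other genes with a first exon of at least 2 kb were used as a closer background beside all genes. Windows of 27 of the 54 neighbouring pairs overlapped, so neighbours can share a peak.

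**Figure D1:**
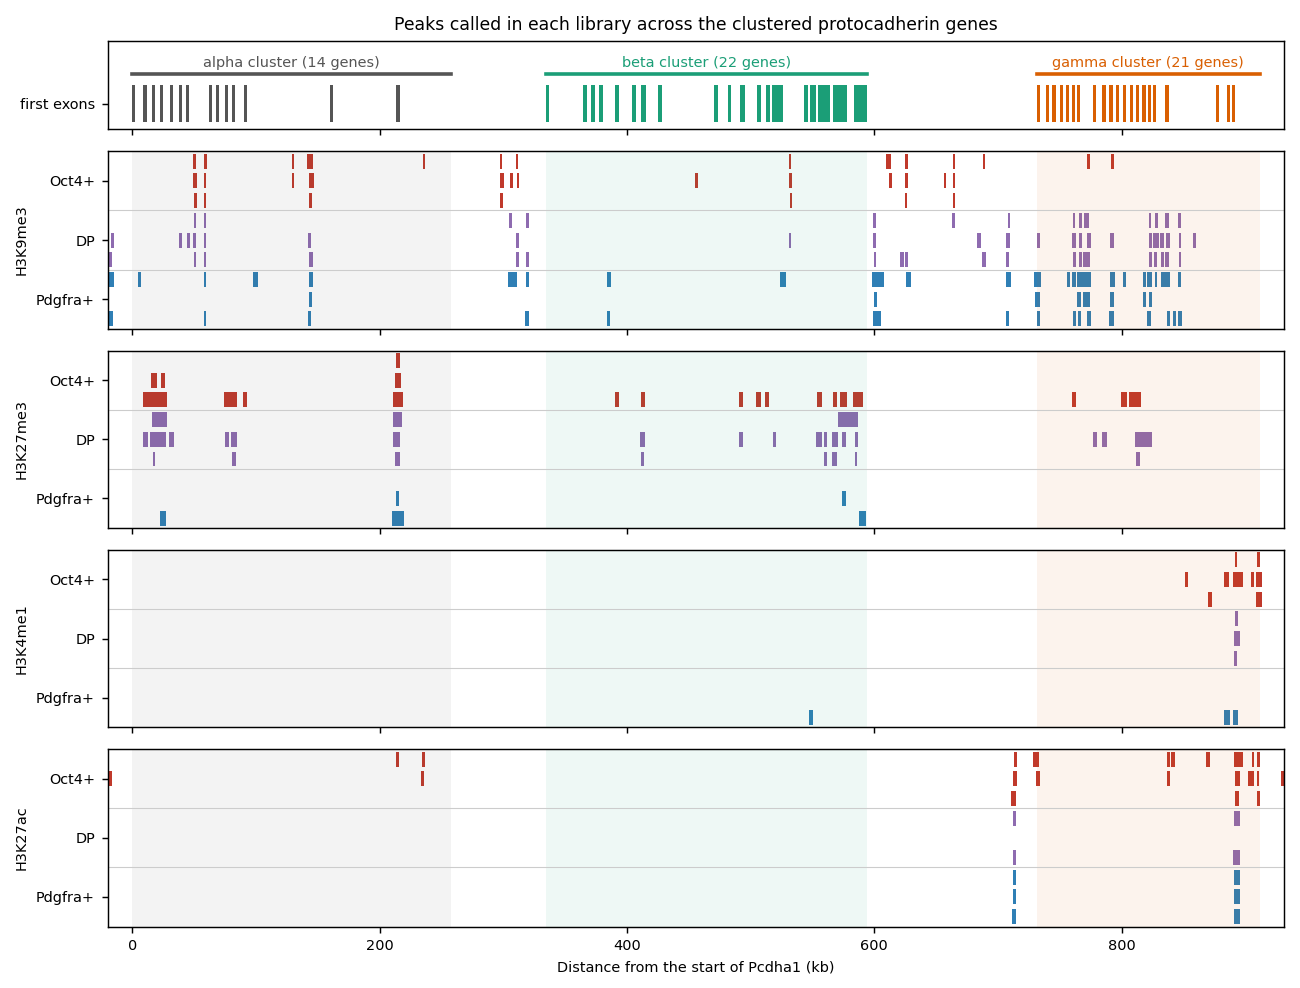
Peaks called in each of the 36 libraries across the 3 clusters, plotted by distance from the start of Pcdha1 in kb. The top track shows the first exons and the span of each cluster, and each row below is 1 library, with replicates 1 to 3 from top to bottom within a population. H3K9me3 peaks recur in the proximal gamma cluster in all DP and Pdgfra+ rows and are nearly missing there in the Oct4+ rows. H3K27me3 peaks lie mostly over alpha and beta first exons and, in 3 rows, over gamma A and B exons too. H3K4me1 and H3K27ac peaks are gathered at the distal end of the gamma cluster.

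The listed peaks were spread unevenly over the 3 clusters, and the difference between clusters was not tested. H3K9me3 lay over the gamma A and gamma B exons of DP and Pdgfra+ nEnd. H3K27me3 lay over alpha and beta exons, mostly in DP nEnd and 1 Oct4+ library, and in 3 libraries over gamma A and B exons too. In Oct4+ replicate 3 and DP replicate 2 it covered 15.9 and 18.9% of the gamma A and B stretch. The beta cluster was covered to 14.7 and 10.1% in the same libraries. H3K27ac and H3K4me1 lay over the distal end of the gamma cluster. Of the 57 members, 41 had a peak of some mark in at least 1 of the 36 libraries. The other 16 had none in any list, among them Pcdha1, Pcdhac1, Pcdhb1 and Pcdhgc3.

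H3K9me3 covered 2.41, 0 and 0% of the bases of the gamma cluster in Oct4+ replicates 1 to 3. The same cluster was covered to 10.7, 18.8 and 13.0% in DP nEnd and to 25.3, 11.5 and 13.8% in Pdgfra+ nEnd. Every DP and Pdgfra+ library was therefore above every Oct4+ library, while DP and Pdgfra+ overlapped. The means were 0.805% ± 1.39 (SD, n = 3) in Oct4+, 14.2% ± 4.17 in DP and 16.9% ± 7.38 in Pdgfra+ nEnd (exact omnibus permutation test, p = 0.0214, adjusted p = 0.257 over the 12 tests of 4 marks and 3 clusters). Divided by the share of the genome under H3K9me3 peaks in the same library, gamma coverage was 0 to 0.853 times the genome in Oct4+, 6.14 to 9.15 times in DP and 5.46 to 16.6 times in Pdgfra+ nEnd. With every list cut to its 5322 strongest peaks, the means were 0, 4.14 and 11.4%. The adjusted p was then 0.0429 (exact permutation p = 0.00357, the smallest that the 1680 assignments of 9 libraries allow). The full and the cut lists thus gave different calls, and the reason was not tested. In 2 further settings fixed for the same comparison, the adjusted p was 0.579 with the stronger 50% of each list and 0.889 with the replicate number as a block. Within blocks the exact permutation p cannot go below 0.0278, so the lack of a call there says little.

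In the alpha and beta clusters H3K9me3 did not separate the populations. Alpha coverage was 3.64% ± 1.35, 2.74% ± 1.33 and 2.16% ± 1.77 in Oct4+, DP and Pdgfra+ nEnd (exact permutation p = 0.468, adjusted p = 0.633). Beta coverage was 1.10% ± 0.559, 0.249% ± 0.431 and 1.32% ± 1.47 (exact permutation p = 0.464, adjusted p = 0.633). Beta coverage was below the genome-wide share in all 9 libraries, whereas alpha coverage was above it in 7.

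**Figure D2:**
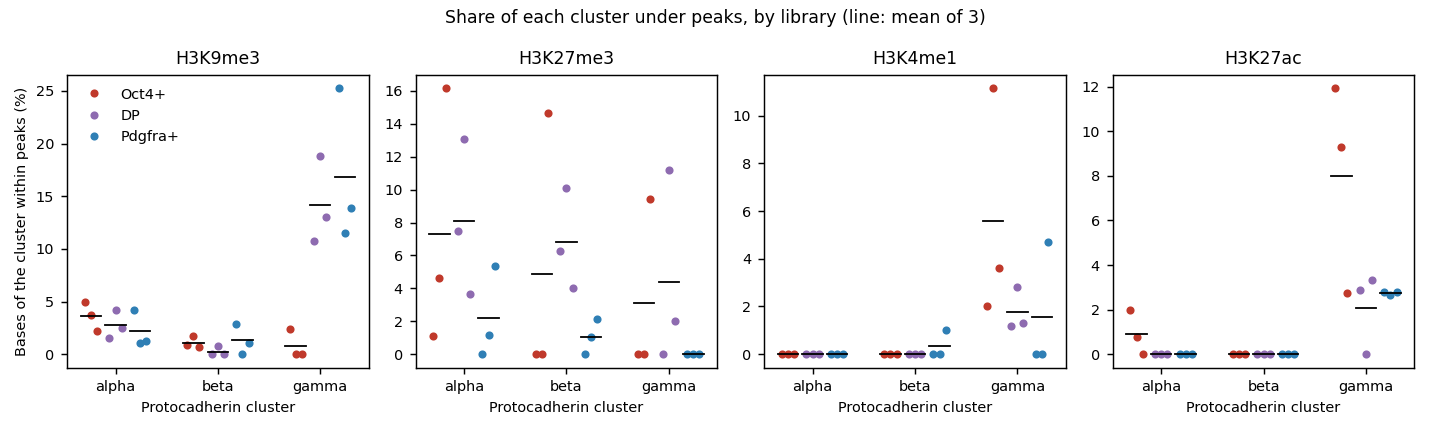
Percent of the bases of each cluster under listed peaks (vertical axis) in the alpha, beta and gamma clusters (horizontal axis), with a panel for each mark. Each point is 1 library and the line is the mean of 3. H3K9me3 in the gamma cluster runs from 10.7 to 25.3% in the DP and Pdgfra+ libraries and from 0 to 2.41% in the Oct4+ libraries, and H3K27me3 is spread widely within the Oct4+ and DP populations.

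Counted by gene, 2, 0 and 0 members had an H3K9me3 peak in the Oct4+ libraries. The DP libraries had 5, 11 and 5 and the Pdgfra+ libraries 13, 8 and 10. In percent of the 57 members this was 1.17 ± 2.03, 12.3 ± 6.08 and 18.1 ± 4.42 (SD, n = 3). Over all genes the shares overlapped, with 1.64 to 3.51%, 1.76 to 3.63% and 0.889 to 4.02%. Pdgfra+ replicate 2 had the shortest H3K9me3 list of all and still had peaks at 8 members. A peak can reach the windows of 2 neighbours, and a window can hold several peaks. The distinct peaks behind these counts numbered 5, 11 and 6 in the DP libraries and 11, 5 and 7 in the Pdgfra+ libraries.

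With at least 2 of 3 libraries required, 0 members carried H3K9me3 in Oct4+ nEnd, where 2.28% of all genes and 5.37% of the other genes with a long first exon did. In DP nEnd 5 members carried it (1.85% of all genes and 4.03% of the other genes with a long first exon), and in Pdgfra+ nEnd 10 did (1.83% of all genes and 4.47% of those with a long first exon). All of these were gamma A or gamma B genes. With the first exon alone, without the 2 kb either side, the counts were 0, 5 and 7 (0.866, 0.606 and 0.688% of all genes), an alternative added after seeing the data. The 3 that left the Pdgfra+ count, Pcdhga6, Pcdhga8 and Pcdhga11, had been reached there wholly or in part by peaks on a neighbour. Of the 12 gamma A genes, 3 in DP and 7 in Pdgfra+ nEnd were marked, and of the 6 gamma B genes 2 and 3. No gamma C-type or alpha C-type gene had an H3K9me3 peak in any library. Only Pcdha6 and Pcdha7 among the alpha genes, both in DP replicate 2, and Pcdhb14 among the beta genes, in Pdgfra+ replicate 1, had a peak in any list (named here after their values were seen).

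**Figure D3:**
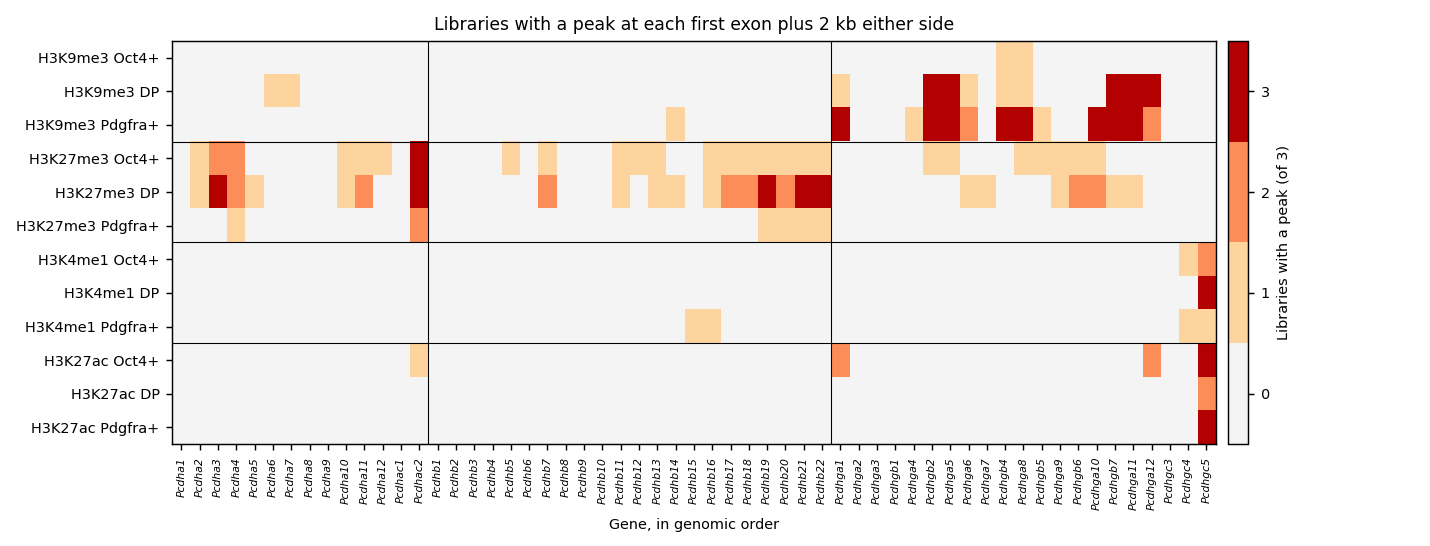
Number of libraries, from 0 to 3, with a peak at the first exon plus 2 kb either side, for each member in genomic order (horizontal axis) and each mark and population (vertical axis). Vertical lines part the alpha, beta and gamma clusters. H3K9me3 is seen in 3 of 3 DP or Pdgfra+ libraries only at gamma A and B genes, H3K27me3 in 3 of 3 libraries at Pcdhac2, Pcdha3 and distal beta genes, and Pcdhgc5 is the only member with H3K27ac in 3 of 3 libraries.

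A peak in 3 of 3 DP libraries and 0 of 3 Oct4+ libraries was found at 5 members, Pcdhgb2, Pcdhga5, Pcdhgb7, Pcdhga11 and Pcdhga12, and at 0.173% of all genes. A peak in 3 of 3 Pdgfra+ and 0 of 3 Oct4+ libraries was found at 6 members, Pcdhga1, Pcdhgb2, Pcdhga5, Pcdhga10, Pcdhgb7 and Pcdhga11, and at 0.26% of all genes. Pcdhgb2, Pcdhga5, Pcdhgb7 and Pcdhga11 were on both lists, and they made up 4 of the 17 genes in the genome with this pattern (0.0775% of all genes). Part of these counts rested on peaks of a neighbouring gene. On their own first exons, Pcdhgb2 and Pcdhga10 had a peak in 2 Pdgfra+ libraries and Pcdhga11 in 1, and the remaining calls were edges of the peaks over Pcdhga5 and Pcdhgb7. With the first exon alone, 5 members had the pattern for DP (0.0912% of all genes), 3 for Pdgfra+ (Pcdhga1, Pcdhga5 and Pcdhgb7, 0.128% of all genes), and Pcdhga5 and Pcdhgb7 for both (2 of 7 genes, 0.0319%). The comparisons with DP and with Pdgfra+ share the Oct4+ libraries. The opposite pattern, 3 Oct4+ libraries and 0 of another population, was found at 0 members, against 0.324% of all genes for DP and 0.542% for Pdgfra+. Likewise 0 members had a peak in 3 of 3 DP and 0 of 3 Pdgfra+ libraries (0.0684% of all genes).

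Pcdhga5 was covered in all 6 DP and Pdgfra+ libraries. Its window was covered to 0% in the 3 Oct4+ libraries, to 39.9, 58.0 and 48.1% in DP and to 85.9, 55.2 and 51.5% in Pdgfra+ nEnd (exact permutation p = 0.0107, adjusted p = 0.233 over 993 genes). Pcdhgb7 was covered to 26.8, 48.1 and 37.2% in DP and to 68.0, 47.0 and 45.4% in Pdgfra+ nEnd, again with 0% in Oct4+ nEnd (exact permutation p = 0.0107, adjusted p = 0.233). In both genes the DP and Pdgfra+ ranges overlapped and Oct4+ lay apart from both. Pcdhgb2 reached 33.8, 50.05 and 36.1% in DP and 67.2, 6.91 and 42.4% in Pdgfra+ nEnd, so its Pdgfra+ libraries ran both above and below the DP libraries. The 6.91% in Pdgfra+ replicate 2 was the edge of the peak over Pcdhga5.

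Neighbouring genes at the distal end of the gamma A and B series had higher means in DP nEnd. Pcdhga11 was covered to 42.2, 91.9 and 58.9% in DP and to 46.2, 17.3 and 6.13% in Pdgfra+ nEnd (exact permutation p = 0.0179, adjusted p = 0.233). Pcdhga12, the last gamma A gene, was covered to 51.3, 61.3 and 60.7% in DP and to 81.4, 0 and 28.0% in Pdgfra+ nEnd (exact permutation p = 0.1, adjusted p = 0.480). Pdgfra+ libraries disagreed at both genes, with replicate 1 far above replicate 2. In Pdgfra+ replicates 2 and 3 the values of Pcdhga11 came from the peak over Pcdhgb7.

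At other gamma genes H3K9me3 was mainly a Pdgfra+ feature. Pcdhga1, the first gene of the cluster, was covered to 81.9, 65.6 and 44.6% in Pdgfra+ nEnd and to 0, 36.6 and 0% in DP nEnd (exact permutation p = 0.0357, adjusted p = 0.233). Pcdhga10 was covered to 49.9, 45.2 and 6.94% in Pdgfra+ nEnd and to 0% in every DP and Oct4+ library (exact permutation p = 0.0357, adjusted p = 0.233). The 6.94% in Pdgfra+ replicate 3 was the edge of the region over Pcdhgb7, which all 3 DP libraries listed too. By window, Pcdhga10 was thus 1 member with a peak in 3 of 3 Pdgfra+ and 0 of 3 DP libraries (0.0866% of all genes), and with the first exon alone 0 members were (0.0501% of all genes). A peak over Pcdhgb4 that reaches the window of Pcdhga8 was listed in 3 Pdgfra+ libraries, 1 DP library and Oct4+ replicate 1, the only Oct4+ library with a peak at any member (both named after their values were seen). Pcdhga2, Pcdhga3, Pcdhgb1, Pcdhga7, Pcdhga9 and Pcdhgb6 had no H3K9me3 peak in any library, although marked genes lie upstream and downstream of each of them.

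Across all genes the per-gene test called 0 of 993 genes for H3K9me3 (0%), and 0 of the 10 members tested, those listed in 2 or more of the 9 libraries. At an unadjusted exact p under 0.05, 157 genes (15.8%) and 5 of the 10 members tested passed. The 47 other members could not be tested. The lowest adjusted p over all genes was 0.233, and no gene was called under any alternative setting. Only 5 of the 993 genes reached the smallest exact permutation p of the design, 0.00357. An adjusted p under 0.05 would need many more genes there, so the lack of calls says little. The same limit holds for the other marks.

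H3K9me3 peaks lay over the body of the variable exons rather than at their starts. Over the 18 gamma A and B genes, the stretch most often inside a peak ran from 1400 to 2400 bp downstream of the exon start in DP nEnd, where 31.5% of the genes were covered on average, and from 1700 to 2500 bp in Pdgfra+ nEnd, where 38.9% were. At the exon start itself the shares were 5.56 and 16.7%. In Oct4+ nEnd no more than 3.70% of the genes were covered at any distance. The peaks were broad, up to 4903 bp wide in DP and 11132 bp in Pdgfra+ libraries. The strongest gamma A or B peak ranked at the 55.5th, 90.9th and 74.5th percentile of total signal within the 3 DP lists and at the 98.5th, 80.0th and 87.8th percentile within the 3 Pdgfra+ lists. The single one in Oct4+ replicate 1 ranked at the 27.4th percentile of its list.

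**Figure D4:**
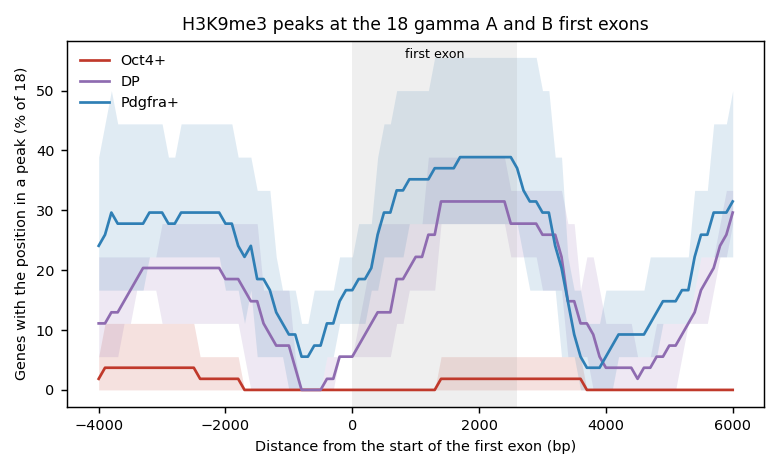
Share of the 18 gamma A and B genes whose position lies inside an H3K9me3 peak (vertical axis, percent), by distance from the start of the first exon in bp. Lines are means of 3 libraries, shaded bands run from the lowest to the highest library and the grey area marks the typical extent of the first exon. The curve of DP nEnd is level at its maximum of 31.5% from 1400 to 2400 bp and that of Pdgfra+ nEnd at 38.9% from 1700 to 2500 bp, while Oct4+ nEnd stays at or under 3.70%.

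Grouped by H3K9me3 peaks in the window, the marked and unmarked gamma genes were not parted by GC content of the first exon. The 10 gamma A and B genes with H3K9me3 in 2 or 3 Pdgfra+ libraries had first exons of 48.9 to 53.3% GC (median 52.1), and the other 8 had 51.4 to 54.0% (median 52.5). Their ratio of observed to expected CpG was 0.361 to 0.732 (median 0.623) against 0.394 to 0.780 (median 0.466). The grouping was by window and the composition is of the exon alone. Of the 10, Pcdhga6, with the lowest GC, and Pcdhga8 had no H3K9me3 peak on their own exon in any library. Pcdhga11 had one on its own exon in only 1 Pdgfra+ library. Repeats made up at most 4.74% of any gamma A exon and 2.90% of any gamma B exon. The repeat share was measured inside the first exons only. Peaks of up to 11132 bp reached beyond these exons, where repeats were not measured. The exons of a group resemble one another, which can make short fragments hard to place. The share of 50-base stretches that recur elsewhere in the 3 clusters was 15.1% in the median alpha alternate exon, 3.48% in beta, 0.295% in gamma A and 11.8% in gamma B exons, and 0% in every C-type exon. On its own exon Pcdhgb2, with 17.9%, had H3K9me3 in 3 DP and 2 Pdgfra+ libraries, and Pcdhgb7, with 2.67%, in 3 and 3. Pcdhgb4, with 10.4%, had it in 1 Oct4+, 1 DP and 3 Pdgfra+ libraries, and Pcdhgb5, with 11.6%, in 1 Pdgfra+ library. Pcdhgb1, with 16.8%, and Pcdhgb6, with 11.9%, had it in 0. Whether recurring sequence bears on these peaks was not tested.

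Of the merged H3K9me3 regions across the clusters and the stretches between them, 25 lay off member first exons and 13 on them. Those off the exons were listed in a median of 2 libraries, 9 of them in 1 library, and those on the exons in a median of 4, 5 of them in 1 library. A region at chr18:36987941-36990202, 2168 bp upstream of the first exon of Pcdha8, had a peak in 3 Oct4+, 3 DP and 2 Pdgfra+ libraries. Another at chr18:37071477-37076830, 13182 bp upstream of Pcdhac1, was listed in 3 Oct4+, 2 DP and 3 Pdgfra+ libraries. By contrast, chr18:37528301-37537940, which begins 3821 bp downstream of Pcdhb22, was listed in 3 DP and 3 Pdgfra+ and in 0 Oct4+ libraries, and chr18:37227302-37230760, between the alpha and beta clusters, in 3 Oct4+ libraries and in 0 of the others. The populations thus differed in both directions outside the exons, and these regions were chosen after their values were seen.

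H3K27me3 followed another distribution and varied strongly between replicates. It was found at 1, 3 and 26 members in the Oct4+ libraries and at 7, 25 and 11 in the DP libraries. The Pdgfra+ libraries had 0, 3 and 4. Over all genes the shares were 5.21, 9.33 and 16.4% in Oct4+, 12.7, 19.1 and 14.9% in DP and 2.80, 6.10 and 14.2% in Pdgfra+ nEnd. Oct4+ replicate 3 and DP replicate 2 held most of the marked members. Both had the longest H3K27me3 list of their population, with 5785 and 8672 peaks. Pdgfra+ replicate 3, the longest list of its population with 6151 peaks, had only 4 marked members. Whether list length bears on these counts was not tested. With every list cut to 1143 peaks, 1, 1 and 3 members were left in the Oct4+ libraries. The cut left 0 in each DP library and 0, 1 and 0 in Pdgfra+ nEnd. The share of all genes under this cut was not counted.

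Again in 2 or 3 libraries of a population, 3 members carried H3K27me3 in Oct4+ nEnd (9.73% of all genes and 24.4% of the other genes with a long first exon). In DP nEnd 13 members did (15.5 and 30.4%), and in Pdgfra+ nEnd 1 did (6.6 and 16.3%). In percent of the members these counts were 5.26, 22.8 and 1.75, each under the share of the other genes with a long first exon. The 13 members in DP nEnd were 3 alpha alternate genes, Pcdhac2, 7 beta genes, 1 gamma A and 1 gamma B gene. With the first exon alone, an alternative added after seeing the data, the counts were 3, 10 and 1 (9.01, 14.1 and 5.51% of all genes). No gamma gene carried H3K27me3 in any Pdgfra+ library.

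**Figure D5:**
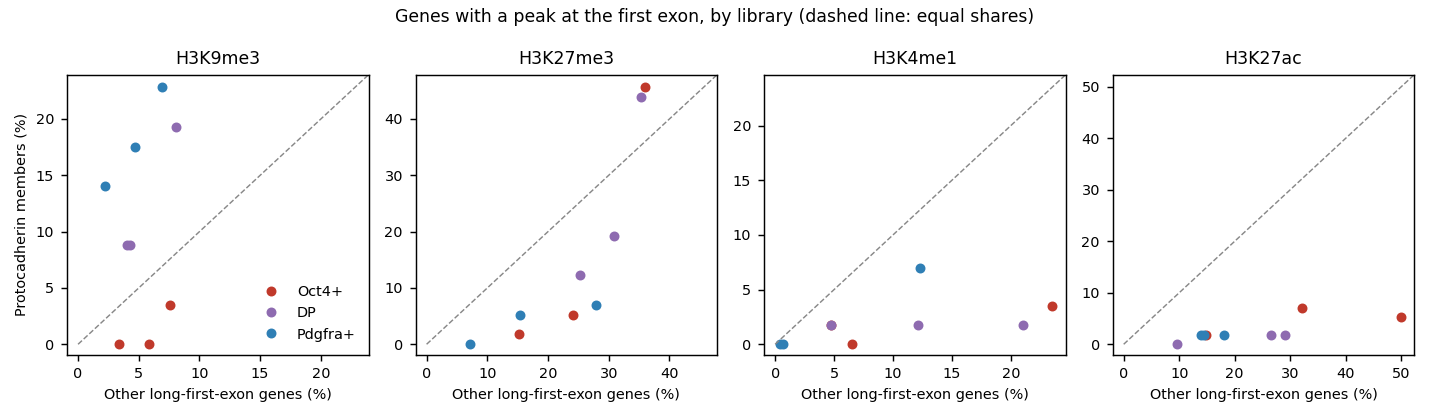
Percent of the 57 members with a peak at the first exon (vertical axis) against the percent of the 447 other genes with a first exon of at least 2 kb (horizontal axis), 1 point per library and a panel per mark. The dashed line marks equal shares. For H3K9me3 the 6 DP and Pdgfra+ libraries lie above the line and the 3 Oct4+ libraries below it. For H3K27me3 only Oct4+ replicate 3 and DP replicate 2 lie above it, and all H3K4me1 and H3K27ac libraries lie at or below it.

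Pcdhac2, the last gene of the alpha cluster, was the member most often marked by H3K27me3, with a peak in 8 of 9 libraries. Its window was covered to 40.3, 58.7 and 100% in Oct4+, to 93.3, 70.1 and 60.1% in DP and to 0, 43.8 and 100% in Pdgfra+ nEnd, and the populations overlapped throughout (exact permutation p = 0.675). The region around it, chr18:37140539-37149665, spans 9127 bp and reaches from the C-type exon into the part of the cluster that holds the constant exons.

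Among the alternate alpha genes, Pcdha3 was covered by H3K27me3 to 0, 72.2 and 100% in Oct4+, to 70.5, 100 and 29.7% in DP and to 0% in the 3 Pdgfra+ libraries (exact permutation p = 0.214). It was the only member with H3K27me3 in 3 of 3 libraries of 1 population and 0 of 3 of another by window (DP against Pdgfra+, 1.44% of all genes), and Pcdhb19 joined it with the first exon alone (1.36% of all genes). The counts were 0 members for Oct4+ over DP (0.242% of all genes), Oct4+ over Pdgfra+ (0.957%), DP over Oct4+ (1.42%), Pdgfra+ over Oct4+ (0.0957%), Pdgfra+ over DP (0.0228%) and DP with Pdgfra+ over Oct4+ (0.0684%). Pcdha4, its neighbour, was covered to 0, 49.1 and 100% in Oct4+, to 100, 98.6 and 0% in DP and to 0, 0 and 71.0% in Pdgfra+ nEnd. A single merged region of 19711 bp, chr18:36938729-36958439, covers the first exons of Pcdha2, Pcdha3 and Pcdha4.

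At the distal end of the beta cluster, H3K27me3 lay over Pcdhb19, Pcdhb20, Pcdhb21 and Pcdhb22, which share a merged region of 22535 bp (chr18:37500918-37523452) listed in 1 Oct4+, 3 DP and 2 Pdgfra+ libraries. Pcdhb19 was covered to 46.8, 59.0 and 29.7% in DP, to 0, 0 and 59.2% in Oct4+ and to 0, 17.2 and 0% in Pdgfra+ nEnd (exact permutation p = 0.229). Pcdhb21 was covered to 63.9, 20.1 and 21.3% in DP, to 0, 0 and 85.0% in Oct4+ and to 0, 0 and 28.6% in Pdgfra+ nEnd. Every DP library listed a peak at both genes, but the single Oct4+ library with a peak exceeded them. Pcdhb22, the last beta gene, was covered to 12.4, 7.53 and 3.51% in DP nEnd, all beside its exon, and to 49.3% and 52.9% in the 1 Oct4+ and the 1 Pdgfra+ library with a peak.

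H3K27me3 coverage of whole clusters did not separate the populations. Alpha coverage was 7.31% ± 7.88, 8.07% ± 4.74 and 2.18% ± 2.81 in Oct4+, DP and Pdgfra+ nEnd (exact permutation p = 0.454), beta coverage 4.89% ± 8.47, 6.79% ± 3.07 and 1.08% ± 1.08 (p = 0.475 by the same exact test), and gamma coverage 3.14% ± 5.44, 4.41% ± 5.98 and 0% (p = 0.464 by the same exact test). The adjusted p was 0.633 for all 3 clusters. The per-gene test called 0 of 4144 genes (0%) and 0 of 19 members for H3K27me3, with 354 genes (8.54%) and 0 members at an unadjusted exact p under 0.05.

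Active marks were nearly limited to Pcdhgc5, the last variable gene of the gamma cluster. H3K27ac covered its window to 39.0, 39.1 and 36.4% in Oct4+, to 49.2, 0 and 60.2% in DP and to 46.0, 44.8 and 46.0% in Pdgfra+ nEnd (exact permutation p = 0.886). The library without a peak, DP replicate 2, had the shortest H3K27ac list with 3079 peaks. H3K4me1 covered the same window to 28.1, 55.6 and 0% in Oct4+, to 29.3, 46.7 and 35.3% in DP and to 0, 0 and 58.7% in Pdgfra+ nEnd (exact permutation p = 0.689). Both Pdgfra+ libraries without a peak had short lists, with 1723 and 1074 peaks. For both marks the populations overlapped. The merged H3K27ac region, chr18:37820150-37828199, runs from the first exon of Pcdhgc5 into the part of the cluster that holds the constant exons.

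Over all members H3K27ac was sparse. It was present in at least 2 of 3 libraries at 3 members in Oct4+ nEnd (34.9% of all genes and 30.6% of the other genes with a long first exon), at 1 in DP (31.7 and 24.2%) and at 1 in Pdgfra+ nEnd (19.4 and 14.8%). Besides Pcdhgc5, the 3 in Oct4+ nEnd were Pcdhga1, covered to 51.8, 49.7 and 0%, and Pcdhga12, covered to 41.1, 37.4 and 0%. DP and Pdgfra+ libraries had 0% at both. Pcdhga1 and Pcdhga12 stand at either end of the gamma A and B series, and both carried H3K9me3 in Pdgfra+ or DP nEnd, as described above. The Oct4+ library without a peak at them, replicate 3, listed 8574 H3K27ac peaks against 38619 and 65131 in the others. The Oct4+ H3K27ac lists reached down to a total signal of 5460 to 6021 and the DP and Pdgfra+ lists to 8736 to 28044. A minimum common to all lists, 28044, lay above the strongest member peak of each Oct4+ list (25417, 23935 and 8652). It removed every member from the Oct4+ lists, Pcdhgc5 included, and left as few as 100 peaks in a list. Such a cut cannot show whether Pcdhga1 and Pcdhga12 differ between the populations. H3K4me1 was found in at least 2 of 3 libraries at 1, 1 and 0 members (6.05, 8.92 and 1.17% of all genes, and 7.61, 9.84 and 1.12% of the other genes with a long first exon).

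Some regions beyond the last variable exon were listed in Oct4+ nEnd alone. The 3′ end of the gamma cluster had H3K27ac at chr18:37839486-37842098 and H3K4me1 at chr18:37838702-37844114, each in 3 Oct4+ libraries and in 0 DP and 0 Pdgfra+ libraries (both named after their values were seen). Over the 19.7 kb from the end of the variable exons to the end of the cluster, H3K27ac covered 50.4, 55.7 and 23.0% of the bases in Oct4+, 20.1, 0 and 20.5% in DP and 20.02, 19.4 and 20.1% in Pdgfra+ nEnd. The lowest Oct4+ library was thus above the highest of the other 6. The Oct4+ lists held 8574 to 65131 H3K27ac peaks, the DP lists 3079 to 12244 and the Pdgfra+ lists 4792 to 7128. This stretch was not measured in lists of equal length. By first-exon window, H3K27ac in 3 Oct4+ and 0 DP libraries was found at 0 members and 1% of all genes. For Oct4+ over Pdgfra+ it was 0 members and 2.89%. The H3K4me1 shares were 0.292 and 0.825%, again with 0 members. For the whole gamma cluster H3K27ac coverage was 7.99% ± 4.73, 2.08% ± 1.82 and 2.74% ± 0.0688 (exact permutation p = 0.2, adjusted p = 0.633). With lists of equal length DP rather than Oct4+ nEnd had the higher mean. The same held with the common minimum of total signal, which no Oct4+ member peak reached. H3K4me1 covered 5.60% ± 4.88, 1.76% ± 0.910 and 1.56% ± 2.71 of the gamma cluster (exact permutation p = 0.282, adjusted p = 0.633). The alpha cluster had no H3K4me1 peak in any library and the beta cluster no H3K27ac peak.

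The per-gene test called 0 of 9532 genes for H3K27ac (0%) and 0 of 3824 for H3K4me1 (0%), and 0 of the 3 and 2 members tested. At an unadjusted exact p under 0.05, 663 genes (6.96%) passed for H3K27ac and 173 (4.52%) for H3K4me1, with 0 members in either.

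H3K9me3 and H3K27me3 were counted together with at least 2 of 3 libraries required for each. Of the members with H3K9me3, 0 of 5 in DP and 0 of 10 in Pdgfra+ nEnd also carried H3K27me3, where 35 of 405 and 10 of 402 genes did genome-wide. With so few members and such low rates, these counts of 0 say nothing particular to the members. The DP lists numbered replicate 2 of both marks held peaks at Pcdhgb7 (48.1% of the window under H3K9me3 and 80.8% under H3K27me3), Pcdhga11 (91.9 and 18.04%) and Pcdhga6 (8.01 and 46.8%). These are separate libraries, and the labels do not say whether they came from the same cells. By window, DP nEnd carried H3K9me3 at 5 gamma A and B genes (1.85% of all genes) and H3K27me3 at Pcdhgb6 and Pcdhga10 (15.5% of all genes). On its own exon Pcdhga10 had H3K27me3 in only 1 DP library. H3K4me1 and H3K27ac met at Pcdhgc5 in Oct4+ and DP nEnd.

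The C-type genes did not behave as a group. Pcdhac2 carried H3K27me3, Pcdhgc5 carried H3K27ac and H3K4me1, Pcdhgc4 had an H3K4me1 peak in 1 Oct4+ and 1 Pdgfra+ library, and Pcdhac1 and Pcdhgc3 had no peak of any mark. H3K27ac was also listed at Pcdhac2 in Oct4+ replicate 1. The gene at the 5′ end of the alpha cluster, Pcdha1, and that of the beta cluster, Pcdhb1, were without a peak, whereas Pcdhga1 at the 5′ end of the gamma cluster had H3K9me3 in 4 libraries and H3K27ac in 2.

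Other gene families were counted in the same way. Of 12 protocadherins outside the clusters, H3K9me3 was at 0 in every population, where 2.28, 1.85 and 1.83% of all genes carried it, and H3K27me3 at 5, 6 and 3 in Oct4+, DP and Pdgfra+ nEnd. The 39 Hox genes, another clustered family, had H3K9me3 at 0 and H3K27me3 at 20, 34 and 20. Of all genes, 9.73, 15.5 and 6.6% carried H3K27me3. Of 63 zinc finger genes, Zfp900 to Zfp999, 4, 5 and 3 carried H3K9me3. The 57 clustered protocadherins had H3K9me3 at 0, 5 and 10 and H3K27me3 at 3, 13 and 1. The difference between families was not tested.

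Genes whose products act on or with the clusters were read against all genes, of which 34.9, 31.7 and 19.4% carried H3K27ac and 9.73, 15.5 and 6.6% H3K27me3 in Oct4+, DP and Pdgfra+ nEnd. Of 12 genes for CTCF, cohesin, its loaders and release factors and REST, 11, 11 and 9 carried H3K27ac in the same order, and 0 carried H3K9me3 or H3K27me3. Ctcf, Rad21 and Smc3 had H3K27ac in all 9 libraries (named after their values were seen). Of 15 genes of H3K9, DNA methylation and other repressive pathways, 11, 10 and 10 carried H3K27ac, 2, 1 and 1 H3K9me3 and 1, 1 and 1 H3K27me3. Of 20 genes for intracellular partners, such as the kinases PTK2 and FYN and the WAVE complex that links membrane receptors to actin, 13, 12 and 10 carried H3K27ac and 3, 6 and 2 carried H3K27me3. The difference from all genes was not tested. No gene of these 3 lists had a peak of any mark in 3 of 3 libraries of 1 population and 0 of 3 of another.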

How the data were processed

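CUT&Tag libraries from sorted nEnd were sequenced paired-end, and the authors called peaks with SEACR in stringent mode, 1 list per library against IgG, from BEDtools coverage. The submitters' processing notes name bcl2fastq 2.19.1, Bowtie2, SAMtools 1.12, deepTools, SEACR, bedtools 2.26.0 and the build mm10, which is GRCm38. The deposited lists give each peak's total signal and maximum signal as whole numbers. Signal was not scaled by the authors as far as the values show, and whether SEACR normalization was on is not given in the sources used here. Depth is unknown, so list length is given in its place. The 3 IgG samples were not used here.

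Genes came from GENCODE vM21. Each was represented by the first exon of its protein-coding transcript with the longest coding sequence, plus 2 kb either side. GENCODE gives 2 genes the symbol Pcdha11, and the upstream one is called Pcdha10 here, as in RefSeq. The covered share of a window or cluster is the percent of its bases under peaks. The members, lists and tests were chosen with earlier results of these data known. Named genes were the C-type genes, the first and last gene of each cluster, the 5 members with a peak in most libraries of each mark, and members listed in every library of 1 population and in no library of another. List genes of the last kind were named too, at most 4 per list.

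For the 3 populations together, the F statistic of a one-way comparison was ranked among all 1680 assignments of the 9 libraries, an exact permutation test with a smallest p of 0.00357. Pairs of populations were not tested, since 3 against 3 cannot go below 0.10. Adjusted p-values follow Benjamini and Hochberg over the 12 cluster tests, or over all genes of a mark with a peak in at least 2 of 9 libraries, with a threshold of 0.05. Counts of members were not tested. Scripts ran in Python 3.11.15 with NumPy 2.4.6 and Matplotlib 3.10.9, and the test was checked on simulated data. Replicate numbers were shared between populations, but the deviations of same-numbered libraries correlated by -0.174 to 0.146, above 0.1 in 2 of 36 pairs, so they were not treated as pairs.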

Additional observations from a re-analysis of the deposited data

How the results depend on the processing

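H3K9me3 coverage of the gamma cluster, the largest difference among the 12 cluster tests, stayed higher in Pdgfra+ than in Oct4+ nEnd under every alternative run. Pdgfra+ exceeded Oct4+ nEnd by 16.1 percentage points, by 11.9 to 18.8 with 1 library left out (exact p 0.0143 to 0.0464, adjusted p 0.171 to 0.557), and with lists of equal length by 11.4, where the adjusted p passed the threshold at 0.0429. With the replicate block the exact p of this difference was 0.0833 and the adjusted p 0.889. The 216 assignments within blocks cannot go below 0.0278, and there was no call to lose, so the block bears on neither loss nor stability. The cause of these shifts was not tested. With lists of equal length, H3K27me3 in the alpha cluster turned from 5.89 points higher in DP than in Pdgfra+ to -0.398, and its excess of 5.72 points in the beta and 4.41 points in the gamma cluster fell to 0. H3K27ac in the gamma cluster turned from 5.91 points higher in Oct4+ than in DP to -0.412. It was -2.08 with a minimum of total signal common to all lists, an alternative added after seeing the data. For H3K27ac that minimum, 28044, lay above every Oct4+ member peak and left as few as 100 peaks in a list. For H3K27me3 as few as 0 peaks were left and for H3K4me1 as few as 2. Since the signal was not scaled, values under the common minimum cannot decide a direction. Of the 12 cluster results 10 had a direction. With 1 library left out, 89 of their 90 values kept it and 1 fell to 0 (H3K4me1 in the beta cluster, without Pdgfra+ replicate 3). Under the other alternatives, the common minimum included, 47 of 60 kept it, 10 fell to 0 and 3 turned.

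The share of members with H3K9me3, 17.0 points higher in Pdgfra+ than in Oct4+ nEnd, was 12.3 with the stronger 50% of peaks, 12.3 with the first exon alone and 24.0 with 5 kb either side. For H3K27me3 the excess of DP over Pdgfra+ of 21.1 points became -0.585 with lists of equal length. For H3K27ac the excess of Oct4+ over DP of 3.51 points became 0 with lists of equal length and 5.26 with 5 kb either side. It was -1.17 with the common minimum, which no Oct4+ member peak reached. Among named genes, equal lists turned Pcdhac2 H3K27me3 (DP minus Pdgfra+) to -14.6 and Pcdhgc5 H3K4me1 (DP minus Pdgfra+) to -19.0 points of covered share, the common minimum turned Pcdhgc5 H3K4me1 to -3.49 and Pcdhgc5 H3K27ac (Pdgfra+ minus DP) to -5.79, and leaving out DP replicate 2 or DP replicate 3 gave -9.09 and 21.0 for the latter. The per-gene test called 0 members under every alternative. Depth is unknown and lists of 1 mark differed widely in length, so a missing peak in a short list says little.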

Other observations

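Between the beta and gamma clusters lie Slc25a2, a mitochondrial ornithine transporter gene, and Taf7, which encodes a TFIID subunit, both on the minus strand. A merged H3K9me3 region over Slc25a2, chr18:37636781-37640938, was listed in 0 Oct4+, 3 DP and 2 Pdgfra+ libraries. The H3K27ac region that covers Taf7, chr18:37640638-37645672, was listed in 3 Oct4+, 2 DP and 3 Pdgfra+ libraries. The 2 merged regions overlap at their edges only because peaks of all populations were merged. Within DP and within Pdgfra+ nEnd every H3K9me3 peak there ended before the H3K27ac peaks began. Both were picked after their values were seen.

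Within the 53.6 kb from Pcdhga12 to the end of Pcdhgc5, H3K9me3 covered 0% in the 3 Oct4+ libraries, 5.37, 10.7 and 3.67% in DP and 5.93, 0 and 11.02% in Pdgfra+ nEnd, without reaching the windows of Pcdhgc3, Pcdhgc4 or Pcdhgc5. No H3K9me3 or H3K27me3 peak lay over the gamma constant exons in any of the 18 libraries of those marks.

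Among the marker genes, the pluripotency gene Tfcp2l1 had H3K4me1 peaks in 3 Oct4+, 3 DP and 0 Pdgfra+ libraries, and the neural tubulin gene Tubb3 had H3K27me3 peaks in 3 DP libraries and in 0 of the others.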
